A study of Mus musculus with 50 samples.

Results

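The dorsal root ganglia of c57BL/6J mice were represented by 2 of the 50 arrays of the series, chosen by their strain label alone: 1 array of RNA pooled from 3 males and 1 of RNA pooled from 3 females. They were set against 44 arrays of 22 other inbred strains, each with 1 male and 1 female pool of the same size: AKR/J, BALB/CByJ, 129S1/Sv1mJ, BTBT T+tf/J, SJL/J, NZW/LacJ, BUB/BnJ, CBA/J, KK/HIJ, C58/J, RIIIS/J, NZO/HILtJ, DBA/2J, C3H/HeJ, NOD/LtJ, C57BR/cdJ, FVB/NJ, P/J, MRL/MpJ, SWR/J, A/J and NON/LtJ. All mice were wildtype, naive and 2 months old. The 4 arrays of SM/J and PL/J were left out as doubtful: the array labelled PL/J male had the X-inactivation RNA Xist at 8.97 (log2), and the array labelled SM/J female had Y-linked genes above the level of every other female array. Each strain therefore had n = 2, and all p-values below measure the spread between a male and a female pool, not that between animals.

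The dorsal root ganglion lies beside the spinal cord and holds the cell bodies of the neurons that carry touch, itch, heat, cold and pain signals from the body. Each cell body is wrapped by satellite glia, and its axon by Schwann cells. c57BL/6J is the strain whose genome became the mouse reference sequence and is the most widely used laboratory strain. It is known to carry several inherited differences from other strains, among them a loss-of-function deletion in Nnt and a small intronic deletion that lowers expression of Gabra2.

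Levels are given as log2 of the deposited intensity + 1, so that a difference of 1 is a 2-fold change in intensity. A gene was tested when its leading probe set, the one with the highest mean, was above 4 in at least 2 of the 46 arrays, and 11209 genes were. It was called when its difference between c57BL/6J and the mean of the other 22 strains passed an adjusted p of 0.05 (limma, Benjamini-Hochberg) and both c57BL/6J arrays lay on the same side of that mean. The defining neuronal genes were present: Isl1 stood at 9.88 and 10.18 in the male and the female c57BL/6J array, P2rx3 at 11.49 and 11.53, and Nefh at 13.15 and 13.24. The c57BL/6J arrays had 18870 (male) and 19082 (female) probe sets above 4, against 18703 to 19327 over all 46 arrays. Their 3' minus 5' signal of Gapdh, a measure of RNA integrity, was -0.48 (male) and -0.09 (female), against -0.69 to 0.60 in other male and -0.73 to 0.34 in other female arrays; of the other female arrays, P/J at 0.34 was higher. The male c57BL/6J array had Xist, the RNA that silences one X chromosome in females, at 4.98, against 2.36 to 7.78 in other male arrays and 9.58 to 11.09 in other female arrays. The part of RNA integrity and of this Xist signal in the results was not tested.

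In c57BL/6J ganglia 328 genes were called higher, which is 2.93% of the genes tested, and 231 were called lower, which is 2.06%. The difference reached 1 in 59 of the higher and 68 of the lower genes, and the median difference over all genes was 0.02. After centring within each sex, both c57BL/6J arrays lay above every other array for 53 genes (0.473%) and below every other array for 35 genes (0.312%); 46 and 33 of these were called. The counts leaned on both pools. Without the male c57BL/6J array 194 genes were called higher and 99 lower, and without the female array 112 and 187. When the error was taken from the spread of all arrays, which includes the differences among the other strains, 48 genes were called higher and 42 lower. Most called genes thus differed from the mean of the other strains by more than the spread between pools, but lay within the range that other strains reached. Over all 22130 probe sets tested, the sex-centred values of the male and female c57BL/6J arrays correlated at r = 0.45. Probe sets are not independent replicates, and several can stand for the same gene. The same value for the 23 strains ran from 0.14 to 0.69 with a median of 0.53.

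**Figure D1:**
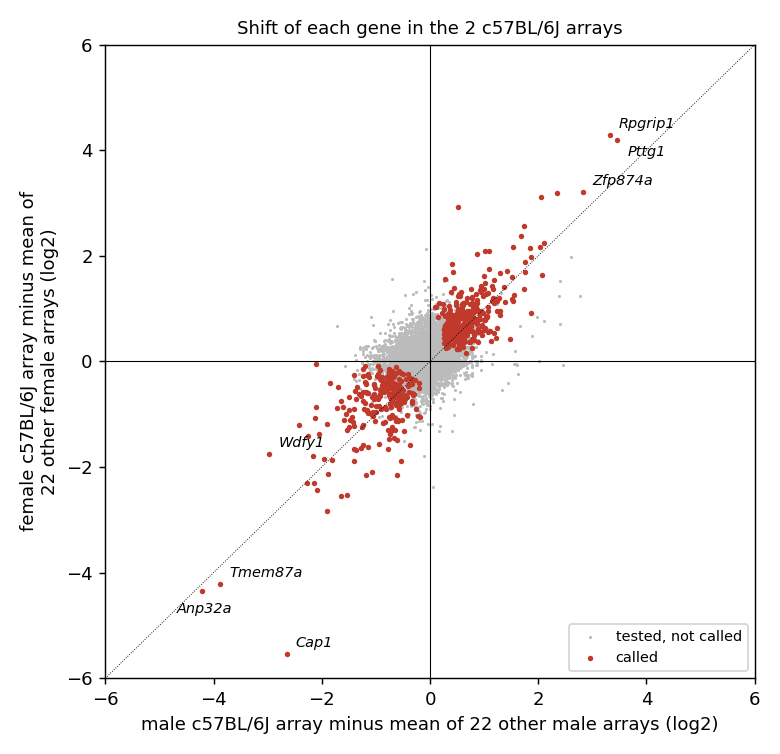
Each point is 1 of 11209 tested genes, with the male c57BL/6J array minus the mean of the 22 other male arrays on the x axis and the same difference for the female arrays on the y axis (log2); red points are the 559 called genes and the dotted line marks equal shifts. Pttg1, Rpgrip1 and Zfp874a lie far above 0 and Anp32a, Cap1, Tmem87a and Wdfy1 far below 0 on both axes, with Cap1 off the line (-2.65 in males and -5.55 in females).

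The signal of a probe set depends on how much transcript is present and on how well its probes match that strain's sequence, and these cannot be told apart from 1 probe set. Of the 559 called genes, 247 had a second tested probe set, which pointed the same way in 182 and was itself called the same way in 52 and the opposite way in 7. Over all 5031 genes with a second tested probe set, the directions agreed in 2967. The other probe sets of the genes below are therefore given where they bear on the result.

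The largest difference above the other strains was that of Pttg1, which encodes securin, the inhibitor of the protease that separates sister chromatids. Pttg1 stood at 9.68 (male) and 10.36 (female) in c57BL/6J, against 5.20 to 7.35 (median 6.13) in the 22 other male arrays and 4.86 to 7.29 (median 6.31) in the other female arrays. Both c57BL/6J arrays thus lay clear of every other array. The difference was 3.83 (SE 0.33, adjusted p = 5.73e-09), and the second probe set of Pttg1 gave 3.96. No other strain came nearer to c57BL/6J than to the mean of the rest.

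Several of the other large increases were levels that c57BL/6J shared with a few strains. Rpgrip1, which encodes a protein of the photoreceptor cilium, stood at 8.04 and 8.59 in the male and female c57BL/6J arrays, against medians of 3.98 and 3.32 in the other male and female arrays. C57BR/cdJ (8.50 and 9.20) and C58/J (8.52 and 8.85) were as high and NZW/LacJ was also nearer to c57BL/6J than to the mean of the rest, so that the groups overlapped. The difference of Rpgrip1 from the other strains was 3.81 (SE 0.35, adjusted p = 1.62e-08). Zfp874a, a zinc finger gene, stood at 6.01 and 6.42 in c57BL/6J, against 5.74 and 6.32 in C57BR/cdJ and medians of 3.06 and 3.07 in the other male and female arrays. Only the arrays of c57BL/6J and C57BR/cdJ were above 4, and the difference was 3.01 (SE 0.09, adjusted p = 2.55e-18). Car8, a carbonic anhydrase-related protein without catalytic activity that is abundant in Purkinje cells, had 6.77 and 7.56 in c57BL/6J, against medians of 3.55 and 3.39. Of the other strains, NZW/LacJ, RIIIS/J, C57BR/cdJ, NZO/HILtJ and C58/J were nearer to c57BL/6J than to the mean of the rest. The difference of Car8 was 2.76 (SE 0.21, adjusted p = 2.73e-10).

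The remaining large increases also fell into levels met in few or in many strains. The predicted gene Gm26782 (difference 2.59) was as high in C57BR/cdJ, C58/J and BTBT T+tf/J, and Smco3, a membrane protein gene (1.85), was as high in C57BR/cdJ and C58/J, with FVB/NJ also nearer to c57BL/6J than to the rest. Hal, which encodes histidine ammonia-lyase, the first enzyme of histidine breakdown, was above 4 only in the arrays of c57BL/6J and NON/LtJ: it had 4.51 and 4.98 in c57BL/6J, against medians of 2.70 and 2.49 in the other male and female arrays and 5.41 and 4.20 in NON/LtJ. The difference of Hal was 2.03 (SE 0.14, adjusted p = 6.99e-11). Prxl2c, a peroxiredoxin-like gene, had 7.73 and 7.85 in c57BL/6J, 7.62 and 7.30 in C57BR/cdJ, and medians of 5.44 and 5.56 in the other male and female arrays, so that both c57BL/6J arrays lay above all others. Its difference was 2.10 (SE 0.13, adjusted p = 1.3e-11), while its second probe set gave -0.42 (adjusted p = 0.342). Cpne8, a copine that binds membranes in a calcium-dependent way, differed by 2.18, with 7 strains low and 15 at its level; its other probe sets gave 0.70 and -0.33. Galc, the lysosomal enzyme that degrades galactolipids of myelin, differed by 2.15, with 9 other strains nearer to c57BL/6J. Its second probe set lay near background and gave -0.16. Vps52, a subunit of a vesicle tethering complex (1.99), was also high in 129S1/Sv1mJ, BTBT T+tf/J and KK/HIJ. The predicted gene Gm13306 (1.92) and the kinase gene Stk25 (1.82) shared their level with 7 and 6 other strains.

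The largest difference below the other strains was that of Anp32a, an acidic nuclear protein that inhibits protein phosphatase 2A. Its leading probe set stood at 3.79 and 3.35 in the male and female c57BL/6J arrays, against 5.86 to 8.45 (median 8.16) in the other male and 4.28 to 8.79 (median 8.40) in the other female arrays. Both c57BL/6J arrays were below every other array, and 129S1/Sv1mJ (6.01 and 4.28) and SJL/J (5.86 and 4.67) came next. The difference was -4.28 (SE 0.51, adjusted p = 1.67e-06). The other probe sets of Anp32a were less far apart, at -0.36 (adjusted p = 0.124) and -0.78 (adjusted p = 0.00368).

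Cap1, which encodes an actin-recycling protein that binds adenylyl cyclase, stood at 6.58 (male) and 3.27 (female) in c57BL/6J, against medians of 10.57 and 10.36 in the other male and female arrays. AKR/J (5.53 and 4.08) was lower on average, and RIIIS/J, MRL/MpJ, NZO/HILtJ, P/J and NON/LtJ were also nearer to c57BL/6J than to the mean of the rest. The difference of Cap1 was -4.10 (SE 0.38, adjusted p = 2.59e-08), with -3.86 for its second probe set. Tmem87a, a Golgi membrane protein gene, fell into separate levels: 3.94 and 3.68 in c57BL/6J, 3.94 and 3.80 in C57BR/cdJ and 3.85 and 3.57 in MRL/MpJ, against medians of 8.18 and 8.31 in the other male and female arrays. The next higher strain was NZO/HILtJ at 7.85 and 8.30. The difference of Tmem87a was -4.05 (SE 0.11, adjusted p = 6.89e-20).

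Wdfy1, an adaptor in Toll-like receptor signalling on endosomes, had 5.01 and 6.14 in the male and female c57BL/6J arrays, against 6.94 to 8.43 (median 7.98) in the other male and 7.24 to 8.82 (median 7.82) in the other female arrays. No other strain approached these levels. Its 3 probe sets gave differences of -2.36, -2.21 and -1.96, and all were called (the leading one at an adjusted p of 7.55e-07). Hddc3, a hydrolase gene, had 4.22 and 4.27 in c57BL/6J, against 4.51 and 4.32 in C57BR/cdJ, 4.70 and 4.38 in C58/J, and medians of 6.64 and 6.74 in the other male and female arrays. Only these 3 of the 23 strains were low, and the difference of Hddc3 was -2.30 (SE 0.11, adjusted p = 1.57e-14). Scg5, the chaperone of a prohormone convertase in secretory granules, had 9.78 and 9.83 in c57BL/6J, against medians of 12.05 and 12.38. C57BR/cdJ, C58/J, 129S1/Sv1mJ and BUB/BnJ were as low, and the difference of Scg5 was -2.01 (SE 0.14, adjusted p = 4.14e-11).

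Of the other large decreases, Kcnf1, an electrically silent potassium channel subunit (-2.22), was also low in C57BR/cdJ, C58/J, SJL/J and NZW/LacJ. Atp10d, a lipid flippase (-1.97), was also low in C57BR/cdJ and BTBT T+tf/J, and Pla2g4e, a cytosolic phospholipase A2 (-1.90), in C57BR/cdJ and 5 further strains. Frg1, a nuclear protein gene (-1.84), lay below all other arrays in c57BL/6J, with C3H/HeJ, DBA/2J and C58/J nearer to it than to the rest. The splicing factor gene Rbfox2 (-2.26) and Marf1, which encodes an RNA-binding protein of meiosis (-2.04), were both nearer to c57BL/6J than to the rest in 129S1/Sv1mJ and SJL/J, and Rbfox2 also in AKR/J. The other tested probe sets of Rbfox2 gave -0.12 to 0.07 and those of Marf1 -0.21 and 0.01, none of them called. Likewise the second probe sets of Cuedc1 (-2.37 for the leading one) and Kcnf1 gave -0.13 and -0.09 and were not called. Serpina1b (-2.10) belongs to a family of near-identical alpha-1 antitrypsin genes, so that its probes can bind several members. The decreases of Rbfox2, Marf1 and Serpina1b were not called without the female c57BL/6J array (adjusted p = 0.0728, 0.194 and 0.197).

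**Figure D2:**
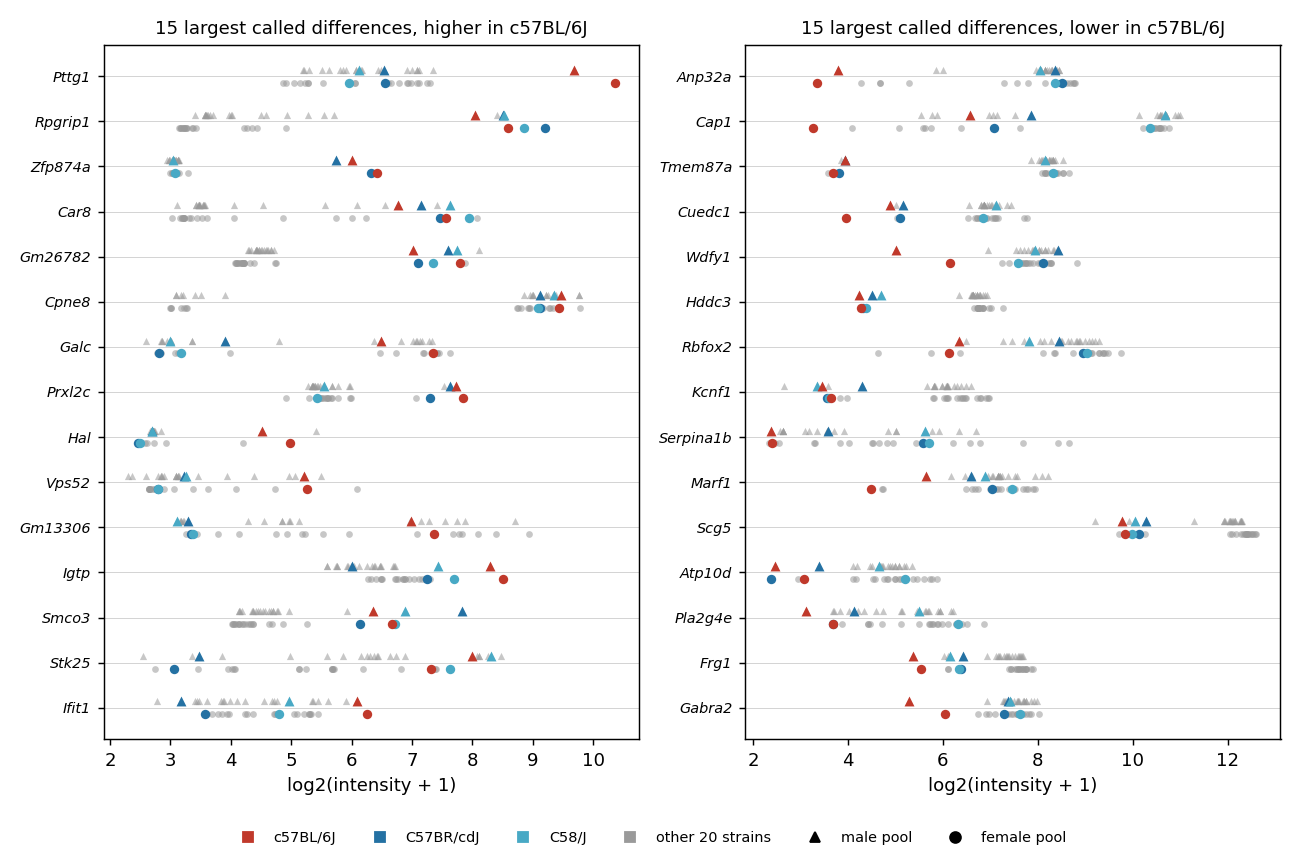
Levels (log2 of intensity + 1, x axis) of the 15 genes with the largest called difference in each direction, in c57BL/6J (red), C57BR/cdJ (dark blue), C58/J (light blue) and the 20 other strains (grey), with triangles for male and circles for female pools. Pttg1, Igtp and Ifit1 lie clear above and Anp32a, Wdfy1 and Gabra2 clear below all other arrays, while Rpgrip1, Hddc3 and Tmem87a show levels shared with 1 or both of C57BR/cdJ and C58/J.

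A list of 18 genes known to differ between inbred strains had 12 tested members, of which 1 (Pttg1) was called higher and 5 were called lower, beside 2.93% and 2.06% of all genes. Its members, among them the c57BL/6J variants Nnt and Gabra2, were chosen as known variants. A share of calls above that of all genes was thus built into the list. Gabra2, which encodes a subunit of the GABA-A receptor, had 5.28 and 6.04 in the male and female c57BL/6J arrays, against 6.92 to 7.99 (median 7.56) in other male and 6.73 to 8.03 (median 7.52) in other female arrays. The groups did not overlap, and the 3 probe sets of Gabra2 gave -1.84, -2.35 and -1.59, all called (adjusted p = 8.91e-07 for the leading one). Of the other 14 tested GABA and glutamate receptor genes, none was called. An unadjusted p of 0.05 (limma) was passed by 3 of them, beside 1916 of all 11209 genes. Alad, an enzyme of heme synthesis, had 6.49 and 6.09 in c57BL/6J, against medians of 8.08 and 8.28, and KK/HIJ (6.53 and 6.46) was nearly as low. The difference of Alad was -1.64 (SE 0.11, adjusted p = 4.14e-11), with -0.51 (adjusted p = 0.0614) for its second probe set. Nnt, the mitochondrial transhydrogenase that makes NADPH, had 6.32 and 7.06, against medians of 7.79 and 7.86, a difference of -0.96 (SE 0.22, adjusted p = 0.00661). DBA/2J and NZO/HILtJ had lower mean signals of Nnt than c57BL/6J, and with the male c57BL/6J array left out Nnt did not pass (adjusted p = 0.349). Glo1, a detoxifying glyoxalase whose gene is duplicated in some strains, differed by -0.68, with 9 other strains at the level of c57BL/6J. Not called were Ahr, the dioxin receptor (-0.56, adjusted p = 0.074), Ifi202b (-0.42), Apoa2 (-0.42), H2-Ea (-0.29, with -1.03 and a call for its second probe set), Hdhd3 (-0.16) and Gpnmb (0.34).

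C57BR/cdJ and C58/J trace back to the same early breeding stock as c57BL/6J, and a second comparison set c57BL/6J against these strains alone. It shares the c57BL/6J arrays with the first comparison, and C57BR/cdJ and C58/J are also among the other 22 strains. In c57BL/6J, 204 genes were called higher (1.82%) and 134 lower (1.2%) than in the mean of C57BR/cdJ and C58/J. Without the male c57BL/6J array 79 were called lower, and without the female array 69 were called higher. Of the 328 genes called higher against all strains, both C57BR/cdJ and C58/J were nearer to c57BL/6J than to the mean of the rest in 61, C57BR/cdJ alone in 49, C58/J alone in 41 and neither in 177. Of the 231 genes called lower, these numbers were 39, 32, 24 and 136.

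The largest differences above C57BR/cdJ and C58/J were in genes of the major histocompatibility complex and in genes already described. H2-K1, a class I chain that presents peptides to cytotoxic T cells, had 9.47 and 9.42 in the male and female c57BL/6J arrays, against 6.19 and 4.90 in C57BR/cdJ and 5.81 and 4.92 in C58/J. The difference from both strains was 3.98 (SE 0.29, adjusted p = 1.72e-10). AKR/J, CBA/J, C3H/HeJ and MRL/MpJ, which with C57BR/cdJ and C58/J are known to carry the k haplotype at this locus, were as low, between 5.04 and 5.61. H2-D1, a second class I chain, had 10.02 and 10.24 in c57BL/6J, against 7.12 and 6.72 in C57BR/cdJ and 7.43 and 6.74 in C58/J, a difference of 3.13 (SE 0.24, adjusted p = 3.96e-10). Other genes high against these strains were Gm13306 (3.89), Pttg1 (3.72) and Galc (3.70).

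Anp32a (-4.75), Cap1 (-4.07), Serpina1b (-2.74), the zinc and manganese transporter gene Slc39a8 (-2.65) and Alb, which encodes serum albumin (-2.50), differed most in the other direction. Slc39a8 had 3.33 and 4.16 in c57BL/6J, against 6.23 and 6.66 in C57BR/cdJ and 6.29 and 6.41 in C58/J. Alb rested on C58/J: it had 2.48 and 2.71 in c57BL/6J, against 2.46 and 2.71 in C57BR/cdJ and 7.32 and 7.86 in C58/J. The 6 tested genes of the liver list, which include Alb, had a list mean relative to all strains of -0.54 in c57BL/6J, against -0.54 in C57BR/cdJ, while C58/J had the second highest list mean of the 23 strains.

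**Figure D3:**
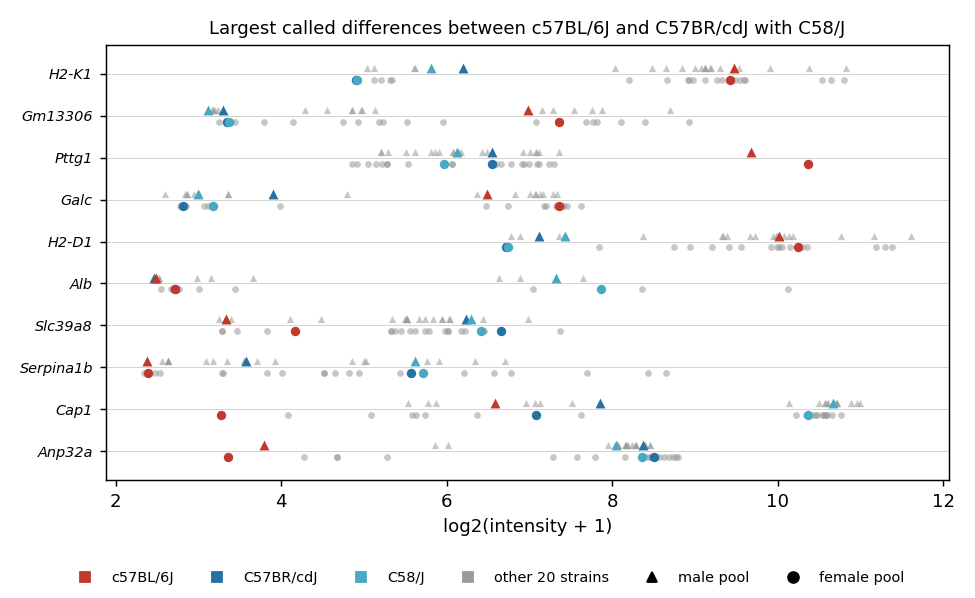
Levels (log2 of intensity + 1, x axis) of the 10 genes with the largest called differences between c57BL/6J (red) and the mean of C57BR/cdJ (dark blue) and C58/J (light blue), with the 20 other strains in grey, triangles for male and circles for female pools. The H2-K1 and H2-D1 signals of C57BR/cdJ and C58/J lie with the low strains, and those of c57BL/6J among the high ones.

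Interferons are cytokines released on infection, and they switch on a large set of antiviral genes through sequence elements in their promoters. Of 26 tested interferon-stimulated genes, 10 were called higher in c57BL/6J and 0 lower, beside 2.93% and 2.06% of all genes. This list, like those that follow, was chosen with earlier results of these data known, so its share is a description and not an independent test. Their median difference was 0.42, beside 0.02 for all genes, and 23 of the 26 differences were above 0. At an unadjusted p of 0.05 (limma), 15 were higher and 0 lower, beside 1916 of all 11209 genes in either direction. Igtp, a GTPase that acts against intracellular pathogens, had 8.29 and 8.50 in the male and female c57BL/6J arrays, against 5.59 to 7.43 (median 6.20) in other male and 6.27 to 7.70 (median 6.87) in other female arrays. The groups did not overlap, and the difference of Igtp was 1.85 (SE 0.17, adjusted p = 1.41e-08). C58/J was nearer to c57BL/6J than to the rest for Igtp. Ifit1, which binds viral RNA lacking the host's cap marks, had 6.09 and 6.26 in c57BL/6J, against 2.78 to 5.91 (median 4.17) and 3.57 to 5.45 (median 4.73). Its difference was 1.73 (SE 0.26, adjusted p = 7.13e-05), again without overlap.

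Further antiviral genes moved the same way. Oasl2, of the oligoadenylate synthetase family, had 8.25 and 7.73 in c57BL/6J, against medians of 6.77 and 6.61 in other male and female arrays, a difference of 1.34 (SE 0.18, adjusted p = 1.23e-05). Ifit3 differed by 1.27 and Ifit2 by 0.98, and both act with Ifit1. Ifi27l2a (not called with the male c57BL/6J array left out, adjusted p = 0.319), a small interferon-induced membrane protein, differed by 1.39, but its range over other strains was wide (male arrays 3.26 to 10.49) and NZO/HILtJ was higher than c57BL/6J. Ifih1, a cytosolic sensor of double-stranded RNA (0.83), Rtp4 (0.73), Bst2, which tethers budding virus (0.66), and Trim30a (0.63) were also called. After centring within each sex, both c57BL/6J arrays of Igtp, Ifit1, Oasl2 and Ifit2 lay above all other arrays. Not called were, among others, Iigp1 (0.83, adjusted p = 0.0823), Xaf1 (0.59), Stat2 (0.24), Rsad2 (0.12), Irf9 (-0.05) and Mx1 (-0.06). Usp18 and Irf7 did not pass the filter.

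Averaged over the 26 genes and relative to all strains, c57BL/6J had the highest list mean of the 23 strains (0.56), followed by C58/J (0.42), while C57BR/cdJ had -0.17 and RIIIS/J the lowest with -0.46. Summed intensities of the list were 4156 (male) and 4008 (female) in c57BL/6J, against 2470 to 4502 (median 2657) in other male and 2394 to 4571 (median 3287) in other female arrays, so that 1 other array of each sex was higher. Without the male c57BL/6J array 5 of the 26 genes were called higher, without the female array 4, and with the spread among strains as the error 1 (Igtp). The median difference was 0.50, 0.45 and 0.43 in these settings. Of 13 tested macrophage markers 0 were called, and their median difference was 0.00. At an unadjusted p of 0.05 (limma) 1 was lower, beside 1916 of all 11209 genes in either direction. Summed intensities of the markers were 1495 (male) and 1358 (female) in c57BL/6J. The other male arrays had 614.0 to 1746 (median 1214) and the other female arrays 878.2 to 4694 (median 1265). Of the other arrays, 2 male and 7 female ones had a higher sum, and the median difference of the markers was -0.12 with the male c57BL/6J array left out and 0.23 with the female array left out. Their part in the interferon result was not tested.

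**Figure D4:**
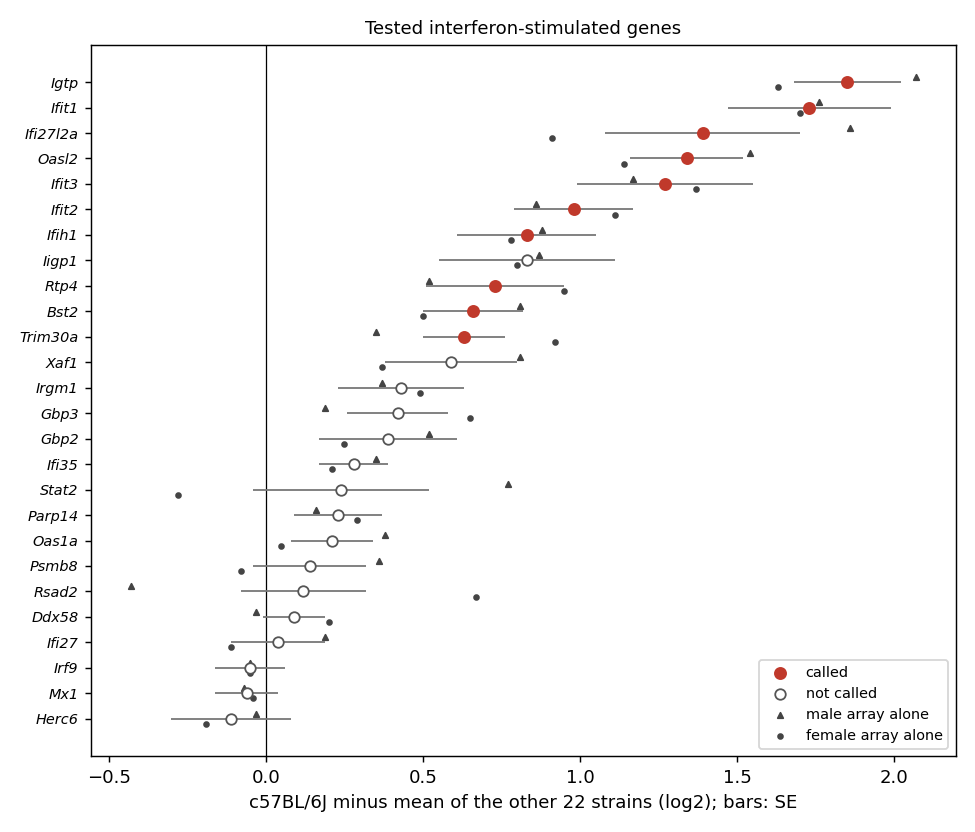
Difference of c57BL/6J from the mean of the other 22 strains (log2, x axis; bars show the SE) for the 26 tested interferon-stimulated genes, filled where called, with the male (triangle) and female (dot) array alone. The 10 called genes lie between 0.63 and 1.85, and 3 of the 26 lie below 0.

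Promoter sequences of the 4 called interferon-stimulated genes with the largest differences in the RefSeq promoter table (GRCm38.p6) are shown because these genes moved together. Each runs from 250 bases before to 50 bases after the annotated start, 5' to 3' on the gene's strand, here + for all 4. Capitals mark matches to the core of the interferon-stimulated response element (GAAA, any 2 bases, GAAA), searched on both strands with overlaps counted. Igtp lies at chr11:58199306-58199605, Ifit1 at chr19:34640639-34640938, Oasl2 at chr5:114896684-114896983 and Ifit3 at chr19:34583279-34583578.
Igtp: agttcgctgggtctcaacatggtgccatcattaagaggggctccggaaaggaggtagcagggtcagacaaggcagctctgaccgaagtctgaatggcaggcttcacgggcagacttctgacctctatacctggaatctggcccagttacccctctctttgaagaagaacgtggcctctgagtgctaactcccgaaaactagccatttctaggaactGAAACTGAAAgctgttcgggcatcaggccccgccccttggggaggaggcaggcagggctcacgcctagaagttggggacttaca
Ifit1: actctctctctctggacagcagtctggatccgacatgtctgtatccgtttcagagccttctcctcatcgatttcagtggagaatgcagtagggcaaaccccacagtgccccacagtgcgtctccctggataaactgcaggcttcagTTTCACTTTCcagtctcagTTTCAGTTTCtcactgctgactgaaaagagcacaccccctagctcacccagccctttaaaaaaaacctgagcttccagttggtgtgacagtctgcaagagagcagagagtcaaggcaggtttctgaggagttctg
Oasl2: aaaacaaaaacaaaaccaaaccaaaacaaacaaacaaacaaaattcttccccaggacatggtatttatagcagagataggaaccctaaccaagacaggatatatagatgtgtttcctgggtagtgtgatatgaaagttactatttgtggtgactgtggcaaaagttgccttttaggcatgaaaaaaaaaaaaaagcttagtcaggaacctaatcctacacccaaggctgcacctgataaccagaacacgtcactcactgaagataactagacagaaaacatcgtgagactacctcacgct
Ifit3: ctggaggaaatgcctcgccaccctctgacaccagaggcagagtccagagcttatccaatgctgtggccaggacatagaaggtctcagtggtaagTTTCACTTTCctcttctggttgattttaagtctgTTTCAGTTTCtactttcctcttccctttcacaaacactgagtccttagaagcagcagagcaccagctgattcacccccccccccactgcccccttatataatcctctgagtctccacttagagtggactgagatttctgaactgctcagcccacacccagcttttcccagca
Igtp held 1 match, Ifit1 held 2, Ifit3 held 2 and Oasl2 none in this window. Of the called interferon-stimulated genes that RefSeq promoters covered, 6 of 8 (75%) held a match in any promoter, as did 7 of 12 tested but not called (58.3%), beside 333 of 9095 tested genes (3.66%). The sequences are those of the reference, so they do not show how other strains differ there.

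By their leading probe sets, 4 genes of antigen presentation were called higher and 0 lower (limma), beside 2.93% and 2.06% of all genes. Of 9 tested class I genes, H2-K1 (1.19, SE 0.24, adjusted p = 0.00216) and H2-D1 (0.93, SE 0.20, adjusted p = 0.0038) were called higher against all strains, and B2m, the shared light chain (0.47, adjusted p = 0.143), was not. In both genes c57BL/6J lay among the higher strains: 13 other strains were nearer to it than to the mean of the rest for H2-K1 and 12 for H2-D1. The probe sets of H2-D1 disagreed, with 3 called higher (0.93, 1.42 and 0.98) and 4 called lower (-1.25, -0.71, -0.72 and -0.84), and class I genes are so alike that probes can bind several. Neither H2-K1 nor H2-D1 passed with the female c57BL/6J array left out (adjusted p = 0.0521 and 0.154), and H2-K1 did not pass with the male array left out (adjusted p = 0.0697). Of 6 tested class II genes, H2-Eb1 (1.39, SE 0.24, adjusted p = 0.000451) and H2-Aa (1.08, SE 0.23, adjusted p = 0.00429) were called higher. The median difference was 0.28 for the class I and 0.44 for the class II list, beside 0.02 for all genes. H2-Aa had 7.81 and 7.80 in c57BL/6J, against medians of 6.56 and 6.72, but did not pass with the male c57BL/6J array left out (adjusted p = 0.183). Cd74, the invariant chain that accompanies class II molecules, differed by 0.25 (adjusted p = 0.71).

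Few genes of sensory neuron types were called, beside 2.93% of all genes called higher and 2.06% called lower. The list means of nociceptor genes in c57BL/6J were among the highest of the 23 strains. The mean was 0.23 for the non-peptidergic list, the highest, with NZO/HILtJ close behind at 0.22. For the peptidergic list it was 0.22, the second highest, well below SJL/J at 0.69. It was 0.20, the third highest, for the 7 neuronal markers used to check the tissue. These markers include Trpv1 and P2rx3 of the nociceptor lists, so the list means are not independent. Of 6 tested peptidergic nociceptor genes only Trpv1, the heat and capsaicin channel, was called, with 8.61 and 8.93 in the male and female c57BL/6J arrays, against 7.57 to 8.76 (median 8.30) and 7.42 to 8.91 (median 8.37). The difference of Trpv1 was 0.49 (SE 0.15, adjusted p = 0.0495), and it was not called without either c57BL/6J array (adjusted p = 0.125 and 0.496). Of 10 non-peptidergic nociceptor genes Gfra1, a co-receptor for glial cell line-derived neurotrophic factor, was called, with 8.63 and 8.87 in c57BL/6J, against 7.43 to 8.42 (median 7.81) and 7.63 to 8.70 (median 8.10). After centring within each sex, both arrays lay above all others. The difference of Gfra1 was 0.71 (SE 0.12, limma adjusted p = 0.00034), and its other probe sets gave 0.30 and -0.35. C58/J, C57BR/cdJ, NOD/LtJ, RIIIS/J and NZO/HILtJ were nearer to c57BL/6J than to the rest for Gfra1. All 10 differences of the non-peptidergic list were above 0, with a median of 0.18. Its genes Ret (0.20), Gfra2 (0.24), Scn11a (0.17) and P2rx3 (0.12) were not called. No tested gene was called among 8 of itch neurons, 3 of C-fibre low-threshold mechanoreceptors, 11 of large myelinated neurons and 9 sodium channel genes. An unadjusted p of 0.05 (limma) was passed by 2, 0, 2 and 1 of these, beside 1916 of all 11209 genes. The nicotinic subunit gene Chrna6 and P2rx2, which the series title concerns, differed by -0.24 (adjusted p = 0.564) and 0.07 (adjusted p = 0.947), and none of the 10 tested nicotinic and P2X genes was called (limma; 1 passed an unadjusted p of 0.05). P2rx3 was the exception by probe set: a weaker one gave 0.60 and was called.

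Among transcription factors of sensory neurons, Runx1, which directs non-peptidergic and itch neurons, was called higher (0.62, SE 0.17, adjusted p = 0.0336) and Maf, needed for touch receptors, lower (-0.68, SE 0.15, adjusted p = 0.00594). The other probe sets of Runx1 gave 0.59 and -0.09 and were not called. Maf had 9.28 and 9.91 in c57BL/6J, against medians of 10.17 and 10.47, and 129S1/Sv1mJ and SJL/J were nearest to it. Runx1 was not called without either c57BL/6J array (adjusted p = 0.183 and 0.289), and Maf did not pass with the male array left out (adjusted p = 0.28). Il6st, the gp130 signal receptor of interleukin-6 family cytokines, had 9.73 and 8.52 in c57BL/6J, against medians of 10.89 and 10.70, a difference of -1.67 (SE 0.24, adjusted p = 3.52e-05). Its 3 other probe sets gave -0.08, -0.43 and -1.02 and were not called.

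Few genes of each ion channel and receptor list were called, beside 2.93% of all genes called higher and 2.06% called lower. Asic3, an acid-sensing channel of muscle and joint afferents, was higher by 0.69 (SE 0.17, adjusted p = 0.015), with 9.25 and 9.28 in c57BL/6J, against medians of 8.75 and 8.58, and was not called without either c57BL/6J array (adjusted p = 0.062 and 0.318). Cacna2d2, an auxiliary calcium channel subunit that binds gabapentin, had 6.42 and 6.88, against medians of 8.17 and 8.25, a difference of -1.35 (SE 0.21, adjusted p = 7.8e-05). C58/J, C57BR/cdJ, DBA/2J, CBA/J and KK/HIJ were nearer to c57BL/6J than to the rest for Cacna2d2, and its second probe set gave -0.04. The other 10 tested calcium channel genes lay between 0.00 and 0.45 and were not called. Of 11 opioid, cannabinoid and monoamine receptor genes, both subunit genes of the serotonin-gated channel were called higher, 10 of 11 differences were above 0 and the median was 0.45, beside 0.02 for all genes. At an unadjusted p of 0.05 (limma), 5 of the list were higher and 1 lower, beside 1916 of all 11209 genes in either direction. The list mean in c57BL/6J (0.37) was the highest of the 23 strains. The median of this list was 0.57 with the male c57BL/6J array left out and 0.30 with the female array left out. Htr3a had 8.68 and 8.24 in c57BL/6J, against 6.94 to 8.77 (median 7.64) in other male and 6.38 to 8.18 (median 7.29) in other female arrays, where the highest values were those of C57BR/cdJ. The difference of Htr3a was 0.96 (SE 0.18, adjusted p = 0.0011). Htr3b, lower in signal at 4.64 and 4.41, differed by 0.95 (SE 0.27, adjusted p = 0.0408) and was not called without either c57BL/6J array (adjusted p = 0.324 and 0.19).

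Most glial genes tested had differences below 0, and some were called lower, in the arrays in which the neuronal marker list had a mean of 0.20 relative to all strains. The part of the neuronal signal in the glial values was not tested. Of 10 tested satellite glia genes 3 were called lower and 0 higher, beside 2.06% and 2.93% of all genes, and 9 of 10 differences were below 0 with a median of -0.29. Gja1, the gap junction protein connexin 43, had 8.21 and 9.01 in the male and female c57BL/6J arrays, against 8.71 to 9.78 (median 9.24) and 8.63 to 10.37 (median 9.56). The male array lay below all other male arrays and the female array within the range of its sex. The difference of Gja1 was -0.82 (SE 0.16, adjusted p = 0.0019), and 5 of its 6 probe sets were called lower. Kcnj10, the potassium channel that buffers potassium around neurons, had 7.02 and 7.09, against medians of 7.61 and 7.88, a difference of -0.67 (SE 0.13, adjusted p = 0.000894). C57BR/cdJ was lower still in Kcnj10 (6.88 and 6.97). Ednrb, an endothelin receptor, had 9.56 and 9.57, against medians of 10.28 and 10.18, a difference of -0.59 (SE 0.15, adjusted p = 0.013). Apoe (-0.29), Glul (-0.29) and Fabp7 (-0.19) were not called.

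Summed intensities of the satellite glia list were 23590 and 24190 in the male and female c57BL/6J arrays, against 19780 to 31390 (median 27630) and 25800 to 35290 (median 30070), and c57BL/6J had the lowest list mean of the 23 strains (-0.33). In whole ganglia, fewer cells of a type and less RNA per cell cannot be told apart. Of the list, 1 gene (Kcnj10) was called lower with the male c57BL/6J array left out, 1 (Gja1) with the female array left out, and 0 with the spread among strains as the error. Of 13 tested myelin genes of Schwann cells Mbp, a main myelin protein (-0.31, SE 0.08, adjusted p = 0.0295), and Ugt8a, which makes the galactolipids of myelin (-0.87, SE 0.16, adjusted p = 0.000816), were called lower. None was called higher and the median was -0.25, beside 2.06% and 2.93% of all genes called lower and higher and a median of 0.02. Of the 8 tested probe sets of Mbp, only the leading one and the weakest one (-1.40) were called, and another gave 0.27. Ugt8a had 9.66 and 9.59 in c57BL/6J, against 9.81 to 10.98 and 9.90 to 11.43, so that both arrays lay below all others, but it did not pass with the female c57BL/6J array left out (adjusted p = 0.102). Mbp was not called without either c57BL/6J array (adjusted p = 0.0636 and 0.479). The strains nearest to c57BL/6J for Gja1, Ednrb, Ugt8a and Maf included 129S1/Sv1mJ. The same held for some other named genes, among them Anp32a, Rbfox2, Marf1, Il6st and H2-Aa, but not for all. For Mbp the nearest strains were SJL/J and BTBT T+tf/J. The mean profile of 129S1/Sv1mJ over 22130 probe sets was also the most like that of c57BL/6J (r = 0.28, as a description). BTBT T+tf/J and SJL/J followed (both r = 0.19), while C57BR/cdJ had 0.04 and C58/J -0.0. In the order of the samples, 129S1/Sv1mJ, BTBT T+tf/J and SJL/J stand directly before c57BL/6J in both sexes. The part of this order in the results, glial or other, was not tested. The Gapdh 3' minus 5' signal of 129S1/Sv1mJ was -0.47 (male) and -0.45 (female). Its part in these values was not tested.

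**Figure D5:**
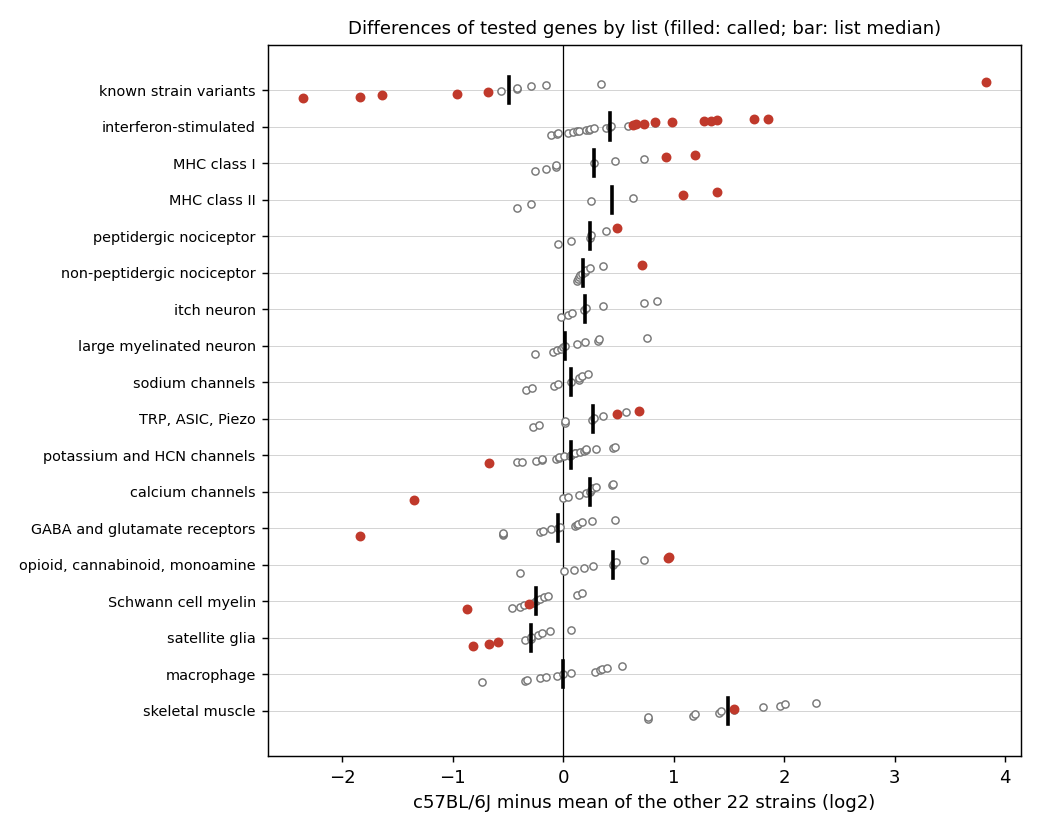
Difference of c57BL/6J from the mean of the other 22 strains (log2, x axis) for each tested gene of 18 lists, filled red where called, with a black bar at the list median. The interferon-stimulated list (median 0.42) lies mostly to the right, the satellite glia (-0.29) and Schwann cell myelin (-0.25) lists mostly to the left, and the skeletal muscle list (1.49) lies to the right with few calls.

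Genes of tissues around the ganglion were also examined. All 12 tested skeletal muscle genes had differences above 0 in c57BL/6J, with a median of 1.49. This median was 0.80 with the male c57BL/6J array left out and 2.04 with the female array left out. Of the 12 genes 1 was called higher and 0 lower, beside 2.93% and 2.06% of all genes. Myh2, a fast myosin, was the member called (1.55, SE 0.45, adjusted p = 0.0395), and it did not pass with either array left out (adjusted p = 0.0677 and 0.559). Myh2 had 3.97 and 5.14, against medians of 2.77 and 2.75. Acta1, skeletal muscle actin, had 9.47 and 8.11 in the male and female c57BL/6J arrays, against 5.07 to 10.83 (median 7.11) and 3.66 to 9.94 (median 6.39), and was not called (1.96, SE 1.27, adjusted p = 0.473). Summed intensities of the list were 2144 and 784.7 in c57BL/6J, against 190.0 to 4070 (median 433.2) in other male and 145.5 to 2482 (median 329.6) in other female arrays. Of the other arrays, 2 male and 5 female ones had a higher sum. The list mean relative to all strains was 1.43 in c57BL/6J, the highest, with NZO/HILtJ next at 1.27. With the mean of the muscle list as a covariate, 420 of the 559 called genes were called the same way, 7 of 26 interferon-stimulated genes were called higher, 3 of 10 satellite glia genes were called lower, and Myh2 was not called (adjusted p = 0.147). No gene of the fat, spinal cord, bone and liver lists was called. Of their 3, 4, 1 and 6 tested genes, 1, 0, 0 and 2 passed an unadjusted p of 0.05 (limma). Of all 11209 genes, 1916 did so.

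Few genes of general cell functions were called, beside 2.93% of all genes called higher and 2.06% called lower. Rgs5, a marker of pericytes, was higher by 1.37 (SE 0.16, adjusted p = 1.05e-06), with 10.44 and 11.18 in c57BL/6J, against medians of 8.92 and 9.35. C57BR/cdJ, C58/J, AKR/J, BALB/CByJ, DBA/2J and CBA/J were nearer to c57BL/6J for Rgs5, and none of the other 13 tested vessel genes was called. Most of the list went the other way: of its 14 genes, Rgs5 included, 2 had differences above 0, and the median was -0.08. Of 12 sterol synthesis genes, Fdft1 (0.34, adjusted p = 0.0379) and Cyp51 (0.39, adjusted p = 0.0401) were called higher, and neither was called without either c57BL/6J array. Among 20 genes of glutathione metabolism and detoxification, Gsto1 was higher (0.59) and Gsta4 (-0.85) and Glo1 lower. Gsto1 did not pass with either c57BL/6J array left out (adjusted p = 0.298 and 0.132). Gsta4, which clears products of lipid peroxidation, had 7.14 and 7.64, against medians of 8.07 and 8.49, below all other arrays of its sex. NZW/LacJ, BTBT T+tf/J and C58/J were nearer to c57BL/6J than to the rest for Gsta4. Nr4a2 was the called member of 14 immediate early genes (-0.61, adjusted p = 0.0445) and was not called without either c57BL/6J array (adjusted p = 0.332 and 0.203). Nnt was the called member of 26 respiratory chain and related mitochondrial genes. No tested gene was called among 12 heat shock, 13 clock, 10 nerve injury, 18 synaptic vesicle, 14 fibroblast, 11 lymphocyte and granulocyte and 3 red cell genes (limma). At an unadjusted p of 0.05 these lists had 1, 1, 0, 2, 2, 0 and 0 genes, beside 1916 of all 11209 genes. Of 22 potassium and HCN channel genes Kcnj10 was the called member, and the 4 tested genes of the Ifi200 and Ly6 families had no call and 1 gene at an unadjusted p of 0.05.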

How the data were processed

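Dorsal root ganglion RNA was measured on Affymetrix mouse arrays. The file holds a linear intensity for each probe set on each array, deposited by the authors after GCRMA (R 2.6.2, according to the submitters' processing notes); the sexes appear to have been normalized as separate sets. The number of arrays, not a read depth, limits precision. Here log2 of intensity + 1 was fitted with limma 3.58.1 in R 4.3.3 over 46 arrays and 22130 probe sets above 4 in at least 2 arrays, with 1 coefficient per strain and sex as an additive term. Contrasts were c57BL/6J minus the mean of the other 22 strains and minus the mean of C57BR/cdJ and C58/J, and a term for the male c57BL/6J array tested whether its shift differed from the female's. P-values were adjusted by Benjamini-Hochberg over all probe sets tested. The fit was tested on simulated data.

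Of 45037 probe sets that are not controls, 34945 had exactly 1 symbol, 932 had several and 9160 had none; 34741 symbols matched the RefSeq gene table (GRCm38.p6). The leading probe set stood for a gene. Named were the 15 largest called differences in each direction, up to 4 called genes of each of 40 lists by size, tested known strain variants, genes of the series title, and the 5 largest called differences in each direction from C57BR/cdJ and C58/J; further values of list members were chosen after they were seen. The members and lists were chosen with earlier results of these data known. Alternatives were an offset of 16 or none, other filters, quantile normalization, no sex term, the spread among strains as the error, array weights, the second probe set and no suffixed probe sets. Single strains, BTBT T+tf/J with P/J, C57BR/cdJ with C58/J, or single c57BL/6J arrays were also left out. A muscle covariate was added after seeing the data.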

Additional observations from a re-analysis of the deposited data

Results flagged for a closer look

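Cap1 lay below the other strains by different amounts in the male and the female c57BL/6J array. Cap1 stood at 6.58 (male) and 3.27 (female) in c57BL/6J, which were -2.65 and -5.55 relative to the other arrays of their sex. The test of that difference gave 2.90 (male minus female, SE 0.53, adjusted p = 0.0225 by limma), from 1 array of each sex. The spread behind this test comes from the male and female pools of the other strains, so that a difference between the sexes of c57BL/6J and a difference between these pools cannot be told apart. Of the other genes that passed this test, Il7 gave -1.45, Ano8 1.48, Dppa5a 1.11, Trmt9b -0.99 and Tmem106a -0.93, and of these only Tmem106a was called against the other strains.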

How the results depend on the processing

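No gene called in the comparison with the other 22 strains changed sign in a setting that kept its leading probe set. This was largely fixed in advance and is no test of the direction. A call already required both c57BL/6J arrays on the same side, and several settings changed the error but not the difference. The second probe set pointed the same way in 182 of the 247 called genes that had one and was called the opposite way in 7. Of the 61 named genes that were called, 44 were still called without the male c57BL/6J array, 43 without the female array and 14 with the spread among strains as the error. Leaving out 1 c57BL/6J array gave 112 to 194 genes higher and 99 to 187 lower, 205 to 403 genes above and 170 to 411 below all other arrays, and, against C57BR/cdJ and C58/J, 69 to 154 higher and 79 to 128 lower; the lone array was assumed to vary like the other strains, and 1 array lies outside a range more often than 2 by construction. Counts of genes higher and lower were 153 and 121 without a sex term, 48 and 42 with the spread among strains as the error, and 163 and 131 with array weights. The second probe sets of 5031 genes gave 118 higher and 136 lower, and 17 above and 13 below all other arrays, where their leading probe sets gave 128, 119, 22 and 16; fewer genes were tested there. Leaving out 1 other strain gave 278 (without A/J) to 397 (without P/J) higher and 207 (without BUB/BnJ) to 281 (without BTBT T+tf/J) lower, and 50 (without FVB/NJ or MRL/MpJ) to 73 (without 129S1/Sv1mJ) above and 35 (without AKR/J, among others) to 46 (without BTBT T+tf/J) below all other arrays. The offset, filters, quantile normalization, SM/J and PL/J, suffixed probe sets and the muscle covariate left these counts within 1.5 times. With BTBT T+tf/J and P/J left out together, 487 genes were called higher and 337 lower. Apart from the changes made by fewer arrays or genes, the cause was not tested. Probe sets near background, such as those of Hal, Myh2 and Htr3b, have signals that are hard to tell from no signal.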

Other observations

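Called genes were spread over the genome. By chromosome, 6 of 361 tested genes of the X chromosome were called (1.66%), and the shares of the 19 autosomes ran from 3.24% on chromosome 10 to 6.87% on chromosome 14. The share of leading probe sets whose name marks probes shared with related transcripts was 22.9% among called genes and 27.2% among all genes tested.

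Single genes outside the naming rule, picked after their values were seen, also stood apart. Prune2, a large neuronal protein gene, stood at 10.75 (male) and 10.94 (female) in c57BL/6J, against 11.87 to 12.51 in the other male and 11.95 to 12.44 in the other female arrays, a difference of -1.36 (SE 0.10). Ckmt2, the mitochondrial creatine kinase of muscle, had 4.15 and 4.78, against 2.89 to 3.85 and 2.88 to 3.75, a difference of 1.42 (SE 0.20, limma adjusted p = 2.5e-05); it passed the filter only through the c57BL/6J arrays and so had to differ. Hspb6, a small heat shock protein abundant in muscle, differed by 1.41 (SE 0.32). The summed muscle signals of c57BL/6J given above stood beside those of Ckmt2 and Hspb6, and their part in these differences was not tested. Among strains, c57BL/6J had 607 probe sets called higher and 545 lower than the other strains, against 163 to 1151 and 171 to 1641 for the other strains by the same test, where BTBT T+tf/J had the most of both.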
